A study of Arabidopsis thaliana with 9 samples.

Results

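The tau and phi glutathione transferases of *Arabidopsis thaliana* were followed in the roots of seedlings exposed to carbenicillin, a beta-lactam antibiotic used in plant tissue culture to clear bacteria. The 38 genes are a list of locus identifiers, 28 of the tau class (GSTU1 to GSTU28) and 10 of the phi class (GSTF2, GSTF3, GSTF6 to GSTF12 and GSTF14). The rule that lists them uses no expression value, but the list was chosen with earlier results of these data known. All 38 were among the 28775 genes of the count table. The filter on low counts kept 35 of them among 19580 tested genes, and it left out GSTU3 with 29 counts over the 9 libraries, GSTU21 with 10 and GSTU15 with 4.

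Root RNA of the Col-0 ecotype was sequenced in 3 groups of 3 libraries. Every seedling spent 6 days on a first plate and 1 day on a second, at 24 °C with 16 h of light and 8 h of dark. Mock seedlings met no carbenicillin on either plate, the 1 day group had 10 µg/mL on the second plate only, and the 7 days group had 10 µg/mL on both plates. Seedlings were thus moved once in every group, and the labels do not say whether the 3 replicas of a group were grown or harvested apart, so the p-values below measure the spread between these libraries, which may be technical.

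Glutathione transferases join the tripeptide glutathione to reactive, electrophilic compounds, and the tau and phi classes are the large plant classes best known for detoxifying herbicides and other foreign chemicals. The conjugates are carried into the vacuole by transporters of the ABCC family. Some members instead bind plant products, as GSTF12 (TT19) does with anthocyanins, or take part in defence chemistry, as GSTF6 does in the synthesis of the phytoalexin camalexin.

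The table held between 5820675 and 16088265 counts per library. Mock 1, 1 day 3 and 7 days 3 had 5820675 to 7533177 counts and are called shallow here, while the other 6 libraries had at least 13707967 and are called deep. Each group held 1 shallow library. All 8 root markers were detected in every library and none was called in any comparison, which goes with the labelled tissue. The summed level of 9 shoot markers was 77.8, 154 and 204 CPM (a count scaled to the library total) in the shallow libraries of mock, 1 day and 7 days and 101 CPM in mock 3, against 46.8 to 60.0 in the other 5 libraries, so that traces of shoot transcripts were present to unequal extent. In 4 of those 5 libraries between 3 and 4 shoot markers were at 0, and in 1 day 2 it was 1 marker. Most of the sum in those 5 was RBCS1A alone, at 46.2 to 58.9 CPM after scaling between libraries. The mean log2 of CPM plus 1 over the 9 markers was 2.61, 3.26 and 3.72 in the shallow libraries. It was 2.78 in mock 3 and 0.71 to 0.90 in the other 5, so mock 3 stood with the shallow libraries. Counts of every pair of libraries in a group differed by more than sampling noise.

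The members together made up 0.536%, 0.509% and 0.634% of the counts in the 3 mock libraries, 0.523%, 0.531% and 0.499% after 1 day, and 0.542%, 0.496% and 0.472% after 7 days. The groups overlapped, and mock 3 stood highest. Because the libraries come from whole roots, fewer cells of a type and less RNA per cell cannot be told apart in any level given here.

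A few members carried most of this signal. GSTU19, GSTF9 (AT2G30860) and GSTF8 made up 53.0% of the members' summed level, and with GSTF10 (AT2G30870) the share was 62%. Set per kilobase of coding sequence, GSTU19 (AT1G78380), a tau enzyme induced by herbicide safeners, led with a mean level of 1832 CPM per kb over the 9 libraries. GSTF9 followed with 1560 CPM per kb. GSTF10 and GSTF8 were nearly level, at 729 and 728 CPM per kb, and GSTU8 (AT3G09270) came next at 571 CPM per kb. The order of GSTF10 and GSTF8 cannot be told from their spread.

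The most abundant members had estimates near 0. GSTU19 stood at 1411, 985 and 1324 CPM after scaling by the trimmed mean of M-values (TMM) in mock, at 1183, 1159 and 1260 after 1 day and at 1287, 1083 and 1191 after 7 days. The 3 groups overlapped, and the log2 fold change from edgeR's quasi-likelihood fit was -0.05 for 1 day against mock with a 95% interval of -0.40 to 0.30, and -0.06 for 7 days (-0.41 to 0.29).

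GSTF9 stood at 939, 926 and 1092 CPM in mock, at 1124, 917 and 1013 after 1 day and at 1147, 971 and 967 after 7 days. Its groups overlapped too, with a log2 fold change of 0.05 (-0.27 to 0.36) at 1 day and 0.06 (-0.25 to 0.37) at 7 days. GSTF8 (AT2G47730), whose promoter is a much-used reporter of early stress signals in roots, gave 694, 541 and 533 CPM in mock, 557, 536 and 582 after 1 day and 706, 614 and 426 after 7 days. The widest spread lay within the 7 days group, and the log2 fold change was -0.08 (-0.48 to 0.33) at 1 day and -0.02 (-0.42 to 0.39) at 7 days.

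GSTF10 (ERD13), first found as an early dehydration-responsive gene, gave 531, 435 and 539 CPM in mock, 436, 440 and 478 after 1 day and 480, 431 and 479 after 7 days. GSTU8 gave 384, 400 and 447 CPM in mock, 358, 464 and 322 after 1 day and 352, 355 and 386 after 7 days. Neither pair of groups separated: the 1 day log2 fold change was -0.15 (-0.43 to 0.12) for GSTF10 and -0.11 (-0.43 to 0.21) for GSTU8.

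**Figure D1:**
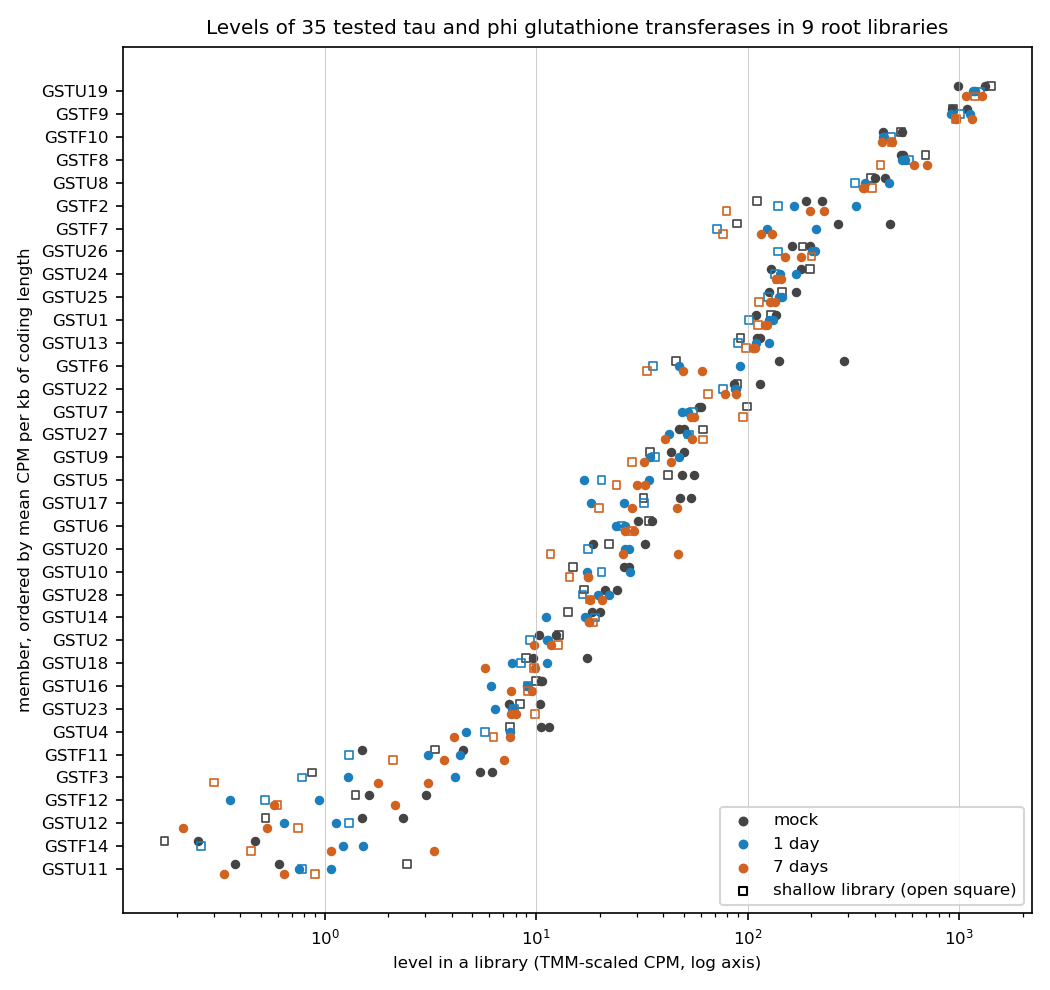
Level of each of the 35 tested members in each of the 9 libraries, in TMM-scaled CPM on a log axis, ordered by mean CPM per kb of coding sequence. Circles are deep and open squares shallow libraries. GSTU19, GSTF9, GSTF10, GSTF8 and GSTU8, the highest per kb, lie within narrow ranges, while GSTF2, GSTF6, GSTF7 and GSTF3 spread widely within groups.

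The first question was whether 1 day on carbenicillin changed these genes. No member of the 35 was called at an adjusted p under 0.05 (edgeR quasi-likelihood, Benjamini-Hochberg over 19580 genes), against 31 genes, or 0.158%, among all genes tested. At an unadjusted p under 0.05, 6 members were lower and 0 higher, where 7.45% of all tested genes passed, 3.47% lower and 3.98% higher. The 6 include GSTF12, which the filter on low counts kept by its mock libraries. Estimates below 0 were found for 30 of 35 members (23 of 25 tau, 7 of 10 phi), against 50.29% of all tested genes, and the median log2 fold change was -0.13 over the members and -0.001 over all genes. The members' median was -0.27 without 1 day 2, -0.21 without mock 2 and -0.19 without mock 1. DESeq2 called 197 genes in all and 1 member, GSTU5. The 31 calls became 0 without mock 3, 1 day 1 or 1 day 2, 11 without 7 days 1, 12 without mock 2 and 20 without 1 day 3.

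GSTU5 (AT2G29450), a tau enzyme first described as auxin-inducible, had the lowest p of the family at 1 day. Its level was 42.2, 55.9 and 49.0 CPM in mock, 16.9, 34.1 and 20.4 after 1 day and 29.9, 32.8 and 24.0 after 7 days. All 6 carbenicillin libraries lay below all 3 mock libraries. The log2 fold change at 1 day was -1.04 ± 0.23 (SE, 3 libraries against 3; 95% interval -1.55 to -0.53) with an adjusted p of 0.149 in edgeR, so it did not pass. DESeq2 gave -1.05 with an adjusted p of 0.0047, and over 18 alternative settings the estimate stayed between -1.41 and -0.84 with adjusted p from 0.0047 to 0.578. At 7 days the estimate was -0.76 ± 0.23 with an adjusted p of 0.739.

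GSTU5 lies on chromosome 2 in a tandem run of 7 tau genes, GSTU7 to GSTU1, and its neighbours GSTU4 and GSTU6 also had low p-values. GSTU6 (AT2G29440) is 83.1% identical to GSTU5 in coding sequence. It gave 34.2, 30.2 and 35.4 CPM in mock, 23.8, 26.2 and 25.3 after 1 day and 29.0, 26.2 and 28.3 after 7 days. Every carbenicillin library was below every mock library, and the 1 day change was -0.40 ± 0.11 (adjusted p 0.255). A gene on the other strand, AT2G29430, overlaps GSTU6 and shares 27.2% of its transcript in windows of 50 bases, and no source used here says whether counting used strand.

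GSTU4 (AT2G29460) gave 7.53, 11.5 and 10.6 CPM in mock, 4.65, 7.56 and 5.75 after 1 day and 4.09, 7.51 and 6.29 after 7 days. The highest library of 7 days lay just below the lowest of mock, while 1 day 2 was level with mock 1. The log2 change was -0.74 ± 0.25 at 1 day (adjusted p 0.468) and -0.76 ± 0.26 at 7 days (adjusted p 0.883).

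Of the other members of the run, GSTU7 (AT2G29420) gave 99.7, 60.3 and 58.8 CPM in mock, 49.0, 52.2 and 55.4 after 1 day and 55.9, 54.3 and 95.2 after 7 days. The 1 day libraries lay just below all mock libraries, and the mock and 7 days groups each had 1 high library, both shallow. The 1 day change was -0.47 ± 0.24 (adjusted p 0.715). GSTU1 stood at -0.06 and GSTU2 at -0.13 on the log2 scale at 1 day, and GSTU3 was not tested.

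The 250 bases before the annotated starts of GSTU5 and GSTU6 are shown because these neighbours lay low in all 6 carbenicillin libraries. They are from RefSeq assembly TAIR10.1, looked up by locus identifier, on the minus strand and written 5′ to 3′. Capitals mark TGACG, the core that TGA factors bind, and TTGAC, the core that WRKY factors bind, on either strand. The GSTU5 window is at chr2:12625791-12626040 and also holds the small annotated gene AT2G29452, and the GSTU6 window is at chr2:12621232-12621481.
GSTU5: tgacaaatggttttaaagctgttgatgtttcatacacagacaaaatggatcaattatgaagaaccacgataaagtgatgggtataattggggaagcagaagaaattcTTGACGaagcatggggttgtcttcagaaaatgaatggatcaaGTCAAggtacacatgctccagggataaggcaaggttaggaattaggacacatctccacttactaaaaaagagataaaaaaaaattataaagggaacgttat
GSTU6: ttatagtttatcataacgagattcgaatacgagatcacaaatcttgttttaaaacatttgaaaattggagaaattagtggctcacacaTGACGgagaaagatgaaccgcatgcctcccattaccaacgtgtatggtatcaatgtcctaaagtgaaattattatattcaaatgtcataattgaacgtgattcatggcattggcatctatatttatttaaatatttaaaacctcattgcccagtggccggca

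In GSTU5 a TGACG begins 142 bases before the start and overlaps a TTGAC that begins at 143, and a further TTGAC lies on the other strand at 101. GSTU6 holds 1 TGACG, at 162, and no TTGAC. In the rest of the run, GSTU7 (1 day estimate -0.47) held 3 TGACG and GSTU1 (-0.06) held 2. GSTU4 (-0.74) and GSTU2 (-0.13) held 0, and the untested GSTU3 held 1. Over the family, 14 of 38 windows (36.84%) held TGACG on either strand, where 18.58% of 27443 windows of protein-coding genes did. TTGAC was found in 23 of 38 (60.53%), where 44.93% of all windows held it. Of the 38 members 25 lie in tandem groups, so their windows need not be independent. A match is only a run of letters, and neither share was tested.

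GSTU17 (AT1G10370, ERD9), a tau enzyme with roles in light-dependent seedling development, gave 32.2, 48.1 and 53.9 CPM in mock, 18.2, 26.1 and 32.3 after 1 day and 28.3, 46.4 and 19.8 after 7 days. Its 1 day libraries reached the lowest mock library, and 7 days 2 lay among the mock libraries. The log2 change was -0.84 ± 0.30 at 1 day (adjusted p 0.497) and -0.50 ± 0.30 at 7 days. GSTU17 and its neighbour GSTU18 overlap on the same strand and share about 2% of their transcripts (1.98% of GSTU17 and 2.27% of GSTU18).

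GSTU16 (AT1G59700) gave 9.99, 10.6 and 10.6 CPM in mock, 6.16, 9.07 and 9.14 after 1 day and 7.61, 9.59 and 9.14 after 7 days. All 6 carbenicillin libraries were below mock, with small estimates of -0.37 ± 0.17 at 1 day and -0.25 ± 0.17 at 7 days. It is named because its groups did not overlap, a choice made after its values were seen.

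GSTF12 (AT5G17220, TT19), which carries anthocyanins to the vacuole, was scarce in these roots. It gave 1.40, 3.02 and 1.62 CPM in mock, 0.358, 0.945 and 0.522 after 1 day and 0.574, 2.15 and 0.600 after 7 days, on counts of 4 to 48 a library. The 1 day libraries lay below all mock libraries, with a log2 change of -1.72 ± 0.57 (adjusted p 0.429), and 7 days 2 lay among the mock values. Mock held 8, 48 and 24 counts, with 5, 15 and 4 after 1 day and 8, 32 and 4 after 7 days. The filter on low counts thus kept GSTF12 by its mock libraries, where it was higher. Its place on the lower side is partly set by the filter. Of the list of 14 anthocyanin genes 4 were tested, of which 2 had estimates below 0 at 1 day. The untested genes, DFR and LDOX among them, lay at 0 to 0.653 CPM. UGT78D2, which glucosylates flavonols and anthocyanidins, was the 1 gene called, where 0.158% of all tested genes were called at 1 day. Its level was 77.1, 158 and 101 CPM in mock, 23.8, 23.4 and 41.0 after 1 day and 45.3, 66.7 and 46.9 after 7 days. It fell by 1.96 on the log2 scale at 1 day (adjusted p 0.0346) and stood at -1.08 at 7 days (adjusted p 0.559). The 1 day call was lost without mock 3, 1 day 1 or 1 day 2, where no gene was called. Whether it held in the other omissions was not followed.

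Members whose mock and 1 day groups did not overlap were GSTU5, GSTU6, GSTU7, GSTU16 and GSTF12, all lower, which is 5 of 35, beside 5.79% of all tested genes that lay lower and 6.52% higher. GSTF12 is among them partly through the filter. For 7 days the members whose groups did not overlap were GSTU4, GSTU5, GSTU6 and GSTU16, 4 of 35, beside 4.53% lower and 4.62% higher over all genes. Both comparisons use the same 3 mock libraries.

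**Figure D2:**
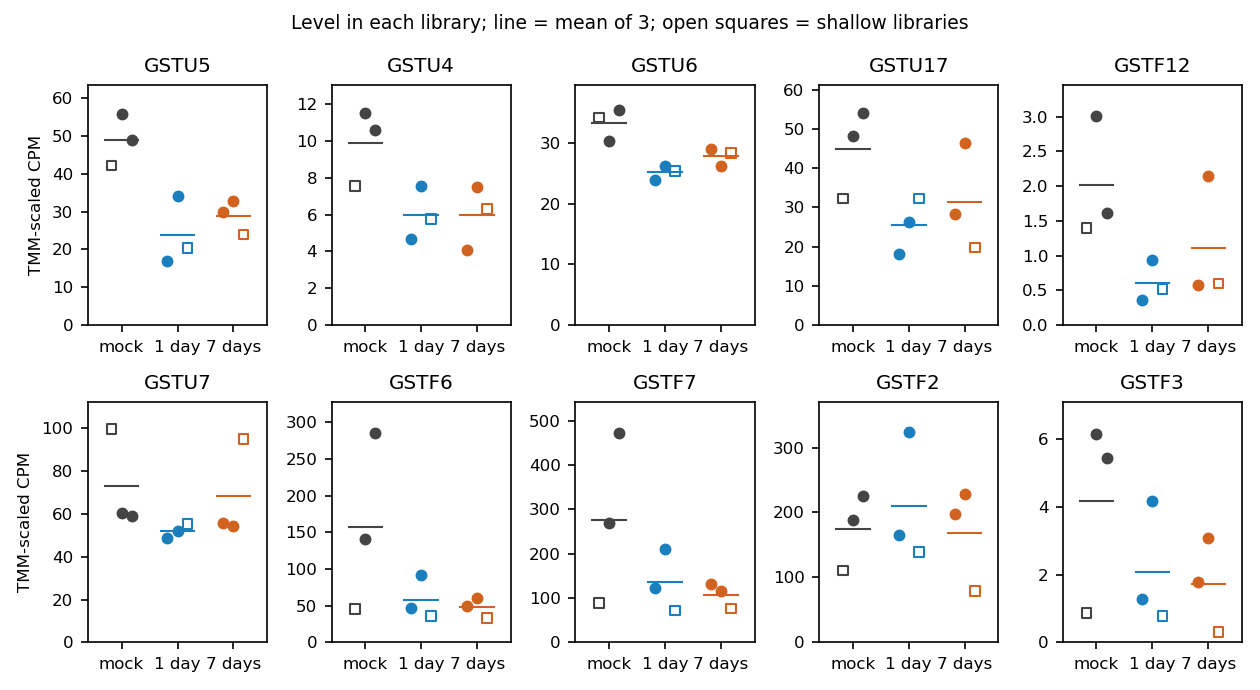
TMM-scaled CPM of 10 members in each library, with a line at the mean of each group of 3; open squares are shallow libraries. GSTU5, GSTU6 and GSTF12 at 1 day lie below mock, while in GSTF6, GSTF7, GSTF2 and GSTF3 the shallow library is the lowest of its group.

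The 7 days group was set against mock next. No gene of the 19580 was called (0%, with 870 genes at an unadjusted p under 0.05 and 47 called by DESeq2), and no member was called by either tool. At an unadjusted p under 0.05, 7 members were lower and 1 was higher, beside 4.44% of all genes, 2.44% lower and 2.00% higher. Estimates below 0 were found for 30 of 35 members, against 49.68% of all tested genes, with a median of -0.17 against 0.001 over all genes. The mock libraries are those of the 1 day comparison. The members' median log2 deviation from their means over the 9 libraries was 0.05, 0.08 and 0.24 in mock. It was -0.10, 0.11 and -0.17 after 1 day, where 1 day 2 lay above mock 1 and mock 2. After 7 days it was -0.07, -0.005 and -0.12, and the pooled SD within groups was 0.11.

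GSTF6 (AT1G02930), the phi enzyme of camalexin synthesis, gave 45.9, 141 and 286 CPM in mock, 47.4, 91.7 and 35.7 after 1 day and 49.4, 60.6 and 33.4 after 7 days. Mock 2 and mock 3 stood above every 7 days library, and mock 1 lay among them. The estimate was -1.44 ± 0.53 at 1 day (adjusted p 0.516) and -1.72 ± 0.54 at 7 days (adjusted p 0.784). Without mock 3 these became -0.70 and -0.98.

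GSTF7 (AT1G02920), a phi enzyme induced by salicylic acid and pathogens, followed the same libraries. Its level was 89.5, 269 and 473 CPM in mock, 123, 211 and 71.8 after 1 day and 131, 116 and 76.7 after 7 days. The groups overlapped in both comparisons, since mock 1 was low, and the estimates were -1.04 ± 0.51 and -1.37 ± 0.51 (adjusted p 0.700 and 0.977). Without mock 3 they became -0.41 and -0.74.

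GSTF6 and GSTF7 are neighbours on chromosome 1 and 94.3% identical in coding sequence, with 36 differences in 630 aligned columns and a longest identical run of 116 bases. A read that falls in that run could come from either gene, and no source used here says how shared reads were counted. The stretch around the run is shown for this reason, with the bases that differ in capitals. It is from RefSeq TAIR10.1, minus strand, written 5′ to 3′, at chr1:661525-661720 for GSTF6 (coding bases 270 to 465) and chr1:659048-659243 for GSTF7 (273 to 468), with 5 differences in 196 bases.
GSTF6: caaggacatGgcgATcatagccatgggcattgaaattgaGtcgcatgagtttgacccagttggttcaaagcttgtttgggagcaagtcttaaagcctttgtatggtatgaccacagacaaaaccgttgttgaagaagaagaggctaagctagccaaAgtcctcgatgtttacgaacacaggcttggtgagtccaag
GSTF7: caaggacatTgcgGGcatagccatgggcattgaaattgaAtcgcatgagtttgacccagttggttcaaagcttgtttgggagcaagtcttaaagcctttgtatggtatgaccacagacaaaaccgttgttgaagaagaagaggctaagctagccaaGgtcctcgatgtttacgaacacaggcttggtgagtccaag

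Windows of 50 bases shared between the transcripts made up 9.41% of GSTF6 and 9.19% of GSTF7. The ratio of GSTF7 to GSTF6 counts was 1.95, 1.90 and 1.66 in mock, 2.59, 2.30 and 2.02 after 1 day and 2.65, 1.91 and 2.30 after 7 days. Mock 3, where both genes were highest, had the lowest ratio.

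CYP71A12, which acts beside GSTF6 in the camalexin pathway, gave 29.4, 75.3 and 190 CPM in mock, 15.2, 38.9 and 4.18 after 1 day and 17.7, 22.7 and 3.30 after 7 days. It too was highest in mock 3, and its estimates were -2.30 ± 0.77 and -2.70 ± 0.79 (adjusted p 0.445 and 0.703). Of the 13 tested genes of the list of glucosinolate and camalexin steps, none was called in a carbenicillin comparison. CYP71A12 was called lower in shallow than in deep libraries (-2.41 ± 0.40, adjusted p 0.0182).

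GSTU12 (AT1G69920) was scarce, at 0.526, 1.51 and 2.36 CPM in mock, 0.644, 1.13 and 1.31 after 1 day and 0.215, 0.537 and 0.749 after 7 days, on 3 to 35 counts. Mock 1 overlapped the 7 days libraries, and the 7 days estimate was -1.79 ± 0.55 (adjusted p 0.764). GSTF14 (AT1G49860) was the one member with a p under 0.05 on the higher side, at 0.175, 0.251 and 0.471 CPM in mock, 1.22, 1.51 and 0.261 after 1 day and 3.30, 1.07 and 0.450 after 7 days. Its estimate was 2.38 ± 0.76 (adjusted p 0.812) on 1 to 46 counts a library, and 7 days 3 lay below mock 3. Mock held 1, 4 and 7 counts, so the filter on low counts kept GSTF14 by its carbenicillin libraries, where it was higher. Its place on the higher side is thus partly set by the filter. Without 7 days 1, which held the 46 counts, the estimate was 1.34.

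**Figure D3:**
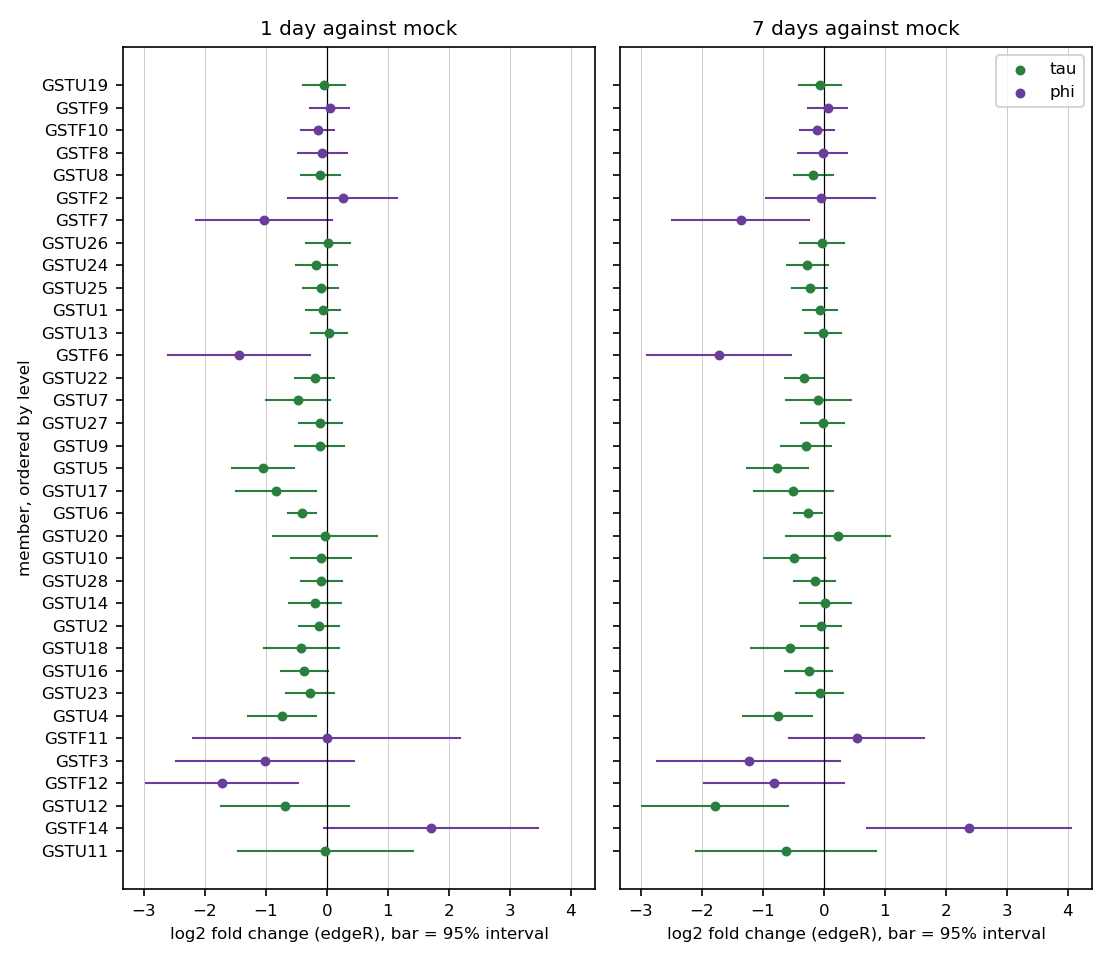
Log2 fold change from the edgeR fit with its 95% interval for the 35 tested members, 1 day against mock on the left and 7 days against mock on the right, ordered by level per kb. Most points lie a little left of 0. GSTU19, GSTF9, GSTF10, GSTF8 and GSTU8, the highest per kb, have narrow intervals around 0. GSTF2 and GSTF7, next in level per kb, have wide intervals. No member passed the adjusted threshold.

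Other well-studied members did not separate the groups. GSTU24 (AT1G17170), an enzyme that conjugates the explosive TNT, gave 198, 129 and 179 CPM in mock, 143, 170 and 135 after 1 day and 143, 136 and 139 after 7 days. GSTU25 (AT1G17180), which shares that activity, gave 146, 126 and 170 CPM in mock, 141, 145 and 124 after 1 day and 135, 127 and 113 after 7 days. Their 7 days estimates were -0.27 ± 0.15 and -0.23 ± 0.13, and the groups overlapped.

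GSTU13 (AT1G27130), which acts in indole glucosinolate metabolism during defence, gave 92.7, 114 and 111 CPM in mock, 126, 109 and 90.0 after 1 day and 106, 108 and 98.3 after 7 days. GSTU20 (AT1G78370, FIP1), a partner of the jasmonate-conjugating enzyme JAR1, gave 22.1, 18.5 and 32.7 CPM in mock, 27.4, 26.2 and 17.6 after 1 day and 46.9, 25.8 and 11.7 after 7 days. Its 7 days libraries spanned the whole range of the other groups. GSTU10 (AT1G74590) gave 14.9, 26.1 and 27.5 CPM in mock, 17.5, 27.7 and 20.4 after 1 day and 17.5, 17.6 and 14.4 after 7 days, with a 7 days estimate of -0.49 ± 0.23 (p 0.0554 before adjustment in edgeR).

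The remaining tested tau members, GSTU9, GSTU11, GSTU14, GSTU18, GSTU22, GSTU23, GSTU26, GSTU27 and GSTU28, and the phi member GSTF11, were not called. Of these, GSTU22 had an unadjusted p under 0.05 at 7 days, with an estimate of -0.33. GSTF11 cannot be read with confidence, because 89.3% of its transcript in windows of 50 bases is shared with AT3G03200 on the other strand. GSTU2 shares 63.3% with AT2G29485 in the same way.

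The 7 days group was then set against 1 day. No gene was called by edgeR or DESeq2, with 398 genes (2.03%, of them 1.01% lower and 1.03% higher) at an unadjusted p under 0.05, and 0 of 35 members reached that level. Estimates below 0 were found for 19 of 35 members, with a median of -0.02. GSTU6 was the single member whose groups did not overlap, higher at 7 days, beside 3.06% of all genes higher and 3.31% lower, with an estimate of 0.15 ± 0.11. GSTU5 was at 0.28 ± 0.23.

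Some members differed between shallow and deep libraries, a comparison added after the data were seen and fitted as a term beside the groups. At an adjusted p under 0.05, edgeR called 4 of 35 members, 1 higher and 3 lower in shallow libraries, where 273 genes, or 1.39%, were called in all. GSTF2, GSTF3 and GSTF7 were lower and GSTU7 was higher. With the replicate block the calls were GSTF7 (-1.59, adjusted p 0.0144) and GSTF6 (-1.58, adjusted p 0.0121), and those of GSTF2, GSTF3 and GSTU7 were lost. Of the 10 phi members 9 had estimates below 0, with a median of -0.95, against 15 of 25 tau members and -0.14. Over all tested genes it was 50.46% and -0.002. The phi members include the near-identical pairs GSTF2 with GSTF3 and GSTF6 with GSTF7, which may share reads. At an unadjusted p under 0.05, 11 members were lower and 3 higher, beside 15.3% of all genes, 7.68% lower and 7.61% higher. GSTU13, GSTF2, GSTF3, GSTF6 and GSTF7 lay lower in every shallow library than in any deep one, 5 of 35, beside 4.47% of all genes lower and 4.48% higher.

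GSTF2 (AT4G02520), a phi protein that binds auxin and camalexin, gave 111, 139 and 79.6 CPM in the shallow libraries of mock, 1 day and 7 days. In the deep libraries it gave 188 and 226 CPM in mock, 165 and 325 after 1 day and 197 and 229 after 7 days. Shallow libraries lay below all deep ones, and GSTF2 was lower by a log2 change of -1.04 ± 0.20 (adjusted p 0.0351). An opposite-strand gene, AT4G02510, accounts for most of the 53.1% of GSTF2 windows that are shared. GSTF3 (AT2G02930) is 94.5% identical to GSTF2 and far scarcer, and it was named after its values were seen.

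GSTF3 gave 0.876, 0.784 and 0.30 CPM in the same shallow libraries, and 6.16 and 5.45 CPM in the deep mock libraries, 1.29 and 4.16 after 1 day and 1.79 and 3.09 after 7 days. The shallow values rest on 5, 6 and 2 counts, and the estimate was -2.42 ± 0.51 (adjusted p 0.0463). The ratio of GSTF2 to GSTF3 counts ran from 30.5 to 266 over the libraries. For GSTF7 the estimate was -1.29 ± 0.27 (adjusted p 0.0483), and for GSTF6 it was -1.27 ± 0.33 (adjusted p 0.0916). GSTU7 was 0.57 ± 0.12 higher (adjusted p 0.0398), though 1 day 3 lay among the deep libraries.

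No call of a member held in every omission of 1 library. Without mock 1, mock 2, 7 days 1 or 7 days 2 no member was called (0 of 35), without mock 3 or 7 days 3 it was GSTF7, without 1 day 2 or 1 day 3 it was GSTU7, and without 1 day 1 it was 5 members with GSTF6 added. Calls over all genes ranged from 64 without mock 1 to 472 without 1 day 1. The 9 shoot markers all had an unadjusted p under 0.05 on the higher side in shallow libraries, with CA2 called. The 11 touch and early wounding genes summed to 268 to 304 CPM of the total in shallow libraries and 160 to 221 in deep ones, and 5 of them (ZAT10, TCH2, WRKY40, TCH4 and JAZ1) were called higher. The part of depth, shoot transcripts and handling in the members' values was not tested.

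**Figure D4:**
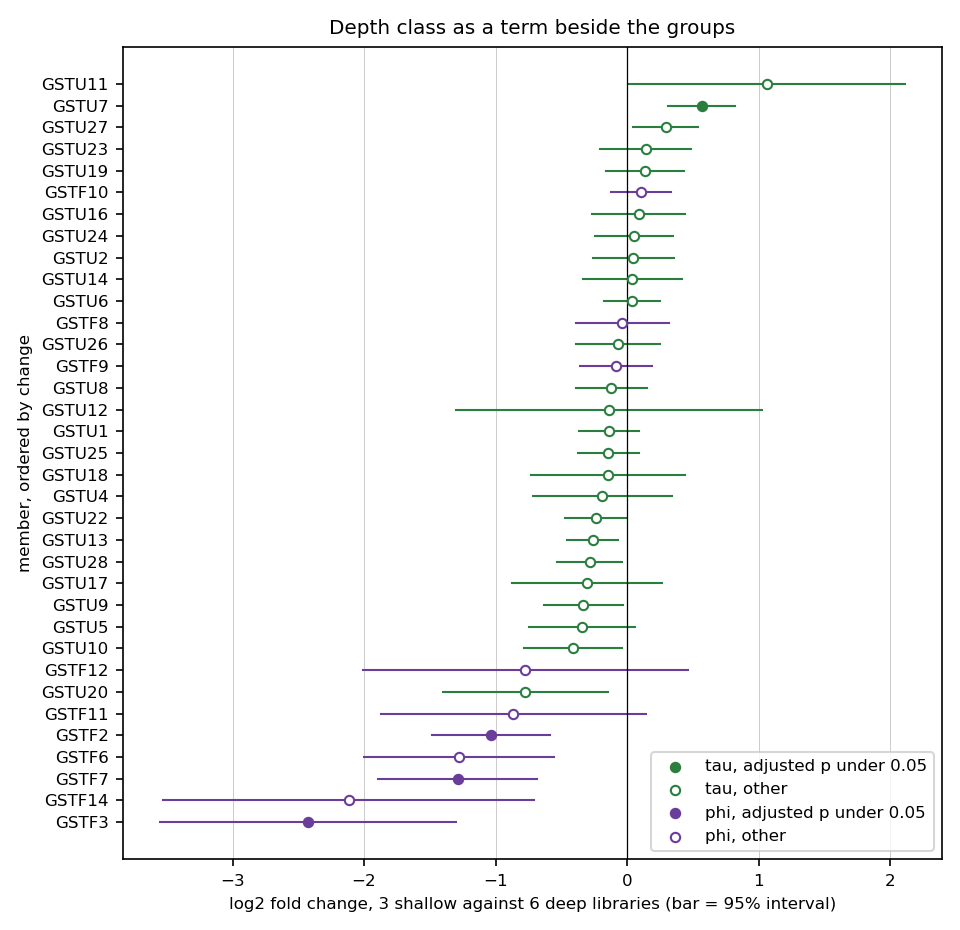
Log2 fold change of the 35 tested members in the 3 shallow against the 6 deep libraries, fitted beside the groups, with 95% intervals; filled points passed an adjusted p under 0.05. GSTF2, GSTF3 and GSTF7 are filled on the lower side and GSTU7 on the higher side.

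The other genes around glutathione were read from lists. Of 12 genes of the zeta, theta, lambda, dehydroascorbate reductase and TCHQD classes, all tested, 0 were called in the carbenicillin comparisons, and their medians were 0.18 at 1 day and 0.004 at 7 days. In the same list DHAR1, which recycles ascorbate, was lower in shallow libraries (-0.57 ± 0.10, adjusted p 0.0205). Of 14 tested genes of glutathione synthesis, reduction and breakdown, 0 were called, with a median of -0.05 at 1 day. GR1, the cytosolic glutathione reductase, gave 420, 545 and 448 CPM in mock, 294, 315 and 343 after 1 day and 352, 441 and 329 after 7 days, and its 1 day libraries lay below all mock libraries. Its estimate was -0.57 ± 0.15 (adjusted p 0.251). GGCT2;1, which breaks glutathione down, was at -1.77 ± 0.42 (adjusted p 0.167) on low levels of 0.716 to 4.31 CPM.

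The 7 ABCC transporters, all tested, had medians of -0.12 at 1 day and -0.08 at 7 days, with ABCC2 at -0.30 ± 0.15 at 1 day (adjusted p 0.715). The 10 genes for TGA factors and partners had medians of 0.15 and 0.06, with ANAC032, a stress NAC factor, at -0.22 ± 0.11 at 1 day and -0.25 ± 0.11 at 7 days (adjusted p 0.712 and 0.9998). Of 15 other detoxification genes 12 were tested and 0 were called, with medians of 0.001 and -0.08. CYP81D11, a cytochrome P450 induced by foreign chemicals, was at 0.27 ± 0.14 at 1 day (adjusted p 0.716).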

How the data were processed

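The 9 root libraries were grouped by the sample titles (mock, 1 day, 7 days; 3 each). Per the labels' protocols, RNA was isolated on columns (RNeasy) and libraries were stranded (TruSeq total RNA). The submitters' processing notes name FastQC, cutadapt and edgeR without versions. For the aligner, counter, annotation, build and strand setting, the entry is "not given in the sources used here". Raw counts per gene were deposited for 28775 genes, and 2 blank lines were left out. RefSeq TAIR10.1 matched 28009 identifiers and gave lengths and sequences.

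Tests on the counts were made in R 4.3.3 with edgeR 4.0.16 (TMM, filterByExpr, quasi-likelihood, all 9 libraries, group only). Adjustment was Benjamini-Hochberg over 19580 genes, with calls at an adjusted p under 0.05. The standard error is the absolute log2 change over the square root of F. Levels are TMM-scaled CPM, and deviations between libraries used a prior count of 2. Tandem members have at most 1 protein-coding gene between them. Alternatives included DESeq2 1.42.0, other scalings and filters, a replicate block, leaving out libraries and a depth term. The fit was tested on simulated data. The members, lists and shallow libraries were chosen with earlier results of these data known.

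Named members were the 5 with the lowest p in each comparison, the 5 highest per kb, and 11 of known role. GSTU16 and GSTF3 were added after their values were seen. Of other lists, called genes or else the 2 with the lowest p in a comparison were open to naming. Deviations of same-numbered libraries correlated at 0.205, 0.257 and 0.245 between 1 day and 7 days, so these numbers were taken as pairs from the data, and the block changed no call there. For replica 3 both libraries are shallow, so number and depth cannot be told apart. The shallow libraries mock 1 and 1 day 3, of different number, correlated at 0.36. Depth ran from 5820675 to 16088265 counts, and reads without molecular identifiers are not independent molecules. Some upstream sequence is not reported here.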

Additional observations from a re-analysis of the deposited data

How the results depend on the processing

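Over 19 alternatives, 1503 of 1606 values of named members kept their direction and side of the threshold, 67 reversed, 31 lost a call and 5 gained one. No member was called in a carbenicillin comparison in the main fit, so every lost call was between depths. Most values kept their side by staying uncalled. For 1 day against mock, calls over all genes were 31, and 61 with no filter, 197 with DESeq2, 94 without the 3 shallow libraries, 58 with a depth term, 0 at an adjusted p under 0.01, and 0 to 44 leaving out 1 library; it was 0 without mock 3, 1 day 1 or 1 day 2. The member count was 0, and 1 (GSTU5) with DESeq2 and with the replicate block, where its estimate was -1.08 (adjusted p 0.0454); leaving out 1 library gave 0. The members' median ran from -0.27 (without 1 day 2) to -0.11 leaving out 1 library. For 7 days against mock, calls over all genes were 47 with DESeq2, 13 without the shallow libraries and 2 with a depth term, and 0 otherwise; the members' median for 7 days against 1 day ran from -0.060 to 0.099 (without 1 day 2) leaving out 1 library.

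For shallow against deep libraries, all-gene calls were 273, and 601 with no filter, 573 with DESeq2, 85 with the replicate block, 52 at an adjusted p under 0.01 and 64 to 472 leaving out 1 library; members were 4, 2 with the block (GSTF7 and GSTF6), 0 at an adjusted p under 0.01 and 0 to 5 leaving out 1 library. The cause was not tested in these cases.

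For 1 day against mock, log2 estimates that crossed 0 with 1 library left out ranged as GSTF2 -0.21 to 0.48, GSTF8 -0.15 to 0.056, GSTF9 -0.032 to 0.12, GSTU10 -0.31 to 0.055 and GSTU13 -0.089 to 0.15. The others were GSTU19 -0.19 to 0.057, GSTU20 -0.21 to 0.25, GSTU25 -0.20 to 0.011 and GSTU8 -0.27 to 0.0017. For 7 days against mock, log2 estimates that crossed 0 with 1 library left out ranged as GSTF2 -0.34 to 0.28, GSTF8 -0.18 to 0.16, GSTF9 -0.025 to 0.14, GSTU13 -0.10 to 0.038, GSTU19 -0.20 to 0.040, GSTU20 -0.35 to 0.56 and GSTU7 -0.39 to 0.19. For 7 days against 1 day, log2 estimates that crossed 0 with 1 library left out ranged as GSTF12 -0.10 to 1.47, GSTF14 -0.37 to 1.05, GSTF2 -0.59 to 0.15, GSTF3 -0.86 to 0.81, GSTF6 -0.53 to 0.21, GSTF7 -0.63 to 0.14, GSTF8 -0.10 to 0.24 and GSTF9 -0.071 to 0.095. The others were GSTU13 -0.17 to 0.069, GSTU16 -0.053 to 0.23, GSTU17 -0.055 to 0.56, GSTU19 -0.080 to 0.049, GSTU20 -0.31 to 0.60, GSTU24 -0.16 to 0.0042, GSTU4 -0.26 to 0.21 and GSTU8 -0.17 to 0.10. Between depths, log2 estimates that crossed 0 with 1 library left out ranged as GSTF8 -0.26 to 0.23, GSTU12 -0.65 to 0.68, GSTU24 -0.11 to 0.18 and GSTU4 -0.33 to 0.0060. Without the 3 shallow libraries, signs reversed for GSTF2 0.042 (7 days against mock), GSTF8 0.024 (1 day against mock), GSTF8 0.30 (7 days against mock), GSTU19 0.021 (1 day against mock), GSTU19 0.018 (7 days against 1 day), GSTU19 0.039 (7 days against mock), GSTU20 0.068 (1 day against mock) and GSTU24 0.025 (1 day against mock). With the replicate block, signs reversed for GSTF12 0.0092 (shallow against deep libraries), GSTF8 0.030 (shallow against deep libraries) and GSTU6 -0.016 (shallow against deep libraries). Same-numbered deviations correlated at 0.003, 0.339 and -0.141 between 1 day and mock and at -0.087, 0.423 and -0.187 between 7 days and mock. These values were mixed, with replica 2 positive and replica 3 negative, so no pairing with mock was taken from them. Whether mock replicas share more than a number with the others is not known. Depth limits GSTU12, GSTF3, GSTF12 and GSTF14.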
